A study of Mus musculus with 12 samples.

Results

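Transcript levels of 10 haemato-endothelial transcription factors, *Tal1*, *Lyl1*, *Lmo2*, *Gata2*, *Erg*, *Fli1*, *Ets1*, *Elk3*, *Runx1* and *Gfi1b*, were compared between mouse embryonic hearts with and without a disruption of Ino80. Ino80 is the ATPase of a chromatin remodelling complex. The 10 genes were chosen by symbol as SCL, LMO2, GATA2, ETS, RUNX and GFI factors of endothelium and blood, and are 10 of the 45664 rows of the count table. Of these, 9 were among the 20691 genes with enough counts to test, and *Gfi1b* was not. Each library came from the whole heart of 1 embryo, with 3 embryos in each of 4 groups: KO at E14.5 (E stands for embryonic day), wild type (WT) at E14.5, KO at E13.5 and WT at E13.5. KO stands for an endothelial disruption of Ino80 by Tie2, and Tie2-driven deletion is known to reach blood cells as well as endothelium. The sources used here do not give strain, sex or the alleles that WT embryos carry. All E13.5 embryos were of litter 1, and the E14.5 embryos were of litter 2 (KO replicates 2 and 4, WT replicates 8 and 7) and litter 3 (KO replicate 1, WT replicate 7.2), so stage and litter cannot be told apart.

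TAL1 (also called SCL) and LYL1 are paralogous basic helix-loop-helix proteins that bind E-boxes with an E-protein partner. LMO2 is a LIM-only adaptor without DNA contacts of its own that bridges TAL1 or LYL1 to a GATA factor, in endothelium and blood progenitors GATA2, through the cofactor LDB1. ERG, FLI1 and ETS1 are ETS activators that bind GGAA cores in the promoters and enhancers of most endothelial genes, whereas ELK3 is an ETS factor of the ternary complex class that mainly represses. RUNX1 drives the emergence of blood cells from haemogenic endothelium, and GFI1B is a repressor of erythroid and megakaryocytic cells that silences endothelial genes in emerging blood. In the mouse embryo TAL1 is needed for blood formation and, in the endocardium, for vessel and heart development.

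The promoters of *Tal1* and *Lyl1* are shown because these paralogues had the largest averaged differences between KO and WT among the tested members. RefSeq (GRCm38.p6) promoter sequences matched 7 of the 10 genes, with 12 start sites. The 250 bases upstream of the first *Tal1* start lie at chr4:115056176-115056425 on the plus strand and those of *Lyl1* at chr8:84701207-84701456 on the plus strand. Capitals mark, on either strand, the GATA core GATAA, the E-box CAGNTG and the ETS core GGAA, where a word on the minus strand appears as its reverse complement, and no marked words overlap.
Tal1: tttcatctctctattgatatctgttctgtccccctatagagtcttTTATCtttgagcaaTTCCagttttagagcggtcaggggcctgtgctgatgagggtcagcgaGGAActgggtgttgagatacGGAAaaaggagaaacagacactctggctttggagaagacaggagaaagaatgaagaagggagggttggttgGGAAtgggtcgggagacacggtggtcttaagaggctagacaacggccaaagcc
Lyl1: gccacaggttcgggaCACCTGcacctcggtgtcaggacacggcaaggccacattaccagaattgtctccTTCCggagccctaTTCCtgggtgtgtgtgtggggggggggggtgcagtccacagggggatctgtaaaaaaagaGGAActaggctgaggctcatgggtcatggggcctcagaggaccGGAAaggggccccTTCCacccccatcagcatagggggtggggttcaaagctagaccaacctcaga
The *Tal1* window held 1 GATA core, 4 ETS cores and 0 E-boxes of this type, and the *Lyl1* window held 0 GATA cores, 5 ETS cores and 1 such E-box. In *Lyl1*, 2 of the ETS cores are part of the longer word CCGGAA. Of 32851 promoter windows of this length, 22.6% held GATAA, 44.8% held CAGNTG, 93.4% held GGAA and 12.0% held CCGGAA, on either strand. The second *Tal1* start, with 3 ETS cores, held neither of the other words. A match is only a match of letters, and no binding was measured in these hearts.

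Libraries held 46556032 to 182545647 counts. *Ino80* itself, the check of the genotype labels, had a log2 fold change of -0.15 ± 0.06 (standard error) for KO over WT averaged over the stages, and did not pass (adjusted p = 0.220). The labels name the KO by Tie2, which reaches endothelium and blood cells rather than the whole heart, and do not give the deleted part. This transcript is therefore a weak check of the labels. Values below are CPM, read counts scaled to the depth of each library. Fold changes, their standard errors and p-values come from edgeR's quasi-likelihood test over all 20691 genes with Benjamini-Hochberg adjustment. In bulk hearts, fewer cells of a type and less RNA per cell cannot be told apart.

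Per kilobase of exon, *Elk3* was the most abundant of the 10 transcripts, with 21.0 ± 1.95 CPM per kb over the 12 libraries (SD), followed by *Ets1* with group means of 13.0 to 15.3 and *Fli1* with 10.3 ± 1.14. *Lmo2* (8.90 ± 0.902), *Lyl1* (7.82 ± 1.81) and *Erg* (7.48 ± 0.646) followed within each other's SDs, then *Tal1* (3.64 ± 0.765) and *Gata2* (2.49 ± 0.289). *Runx1* (0.0908 ± 0.0222) and *Gfi1b* (0.0447 ± 0.0380) lay far below these. The place of *Lyl1* in this order varied most between groups. In E14.5 KO hearts, with 7.85 ± 0.630 CPM per kb, and in E14.5 WT hearts, with 5.44 ± 1.03, it stood below *Erg*. In E13.5 KO hearts, with 9.99 ± 0.854 CPM per kb, it stood above *Fli1*, *Lmo2* and *Erg*, whereas in E13.5 WT hearts, with 8.01 ± 0.252, it stood below *Fli1* and *Lmo2* (SD, n = 3 each). Neighbours in the order within a group, such as *Lyl1* and *Fli1* (9.20 ± 0.813) in E13.5 KO hearts, often lay within their SDs.

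*Tal1* and *Lyl1* rose in KO hearts averaged over both stages, whereas *Lmo2*, the adaptor of the same complex, and *Gata2* did not pass the test. *Tal1* (chr4:115056426-115071755, plus strand, GRCm38) had 14.6, 15.7 and 13.2 CPM in E14.5 KO hearts, against 11.9, 13.498 and 10.9 CPM in E14.5 WT hearts. Its E13.5 levels were 20.3, 20.3 and 21.1 CPM in KO hearts, against 16.5, 16.7 and 16.7 CPM in WT hearts. The KO hearts were all higher at E13.5, and at E14.5 the lowest KO heart lay just under the highest WT heart. The log2 fold change averaged over the stages was 0.29 ± 0.06 (95% interval 0.15 to 0.43, adjusted p = 0.0434). Neither stage passed alone, with 0.27 ± 0.09 at E14.5 (adjusted p = 0.320) and 0.31 ± 0.09 at E13.5 (adjusted p = 0.272). The averaged call is close to the threshold of 0.05. It held in 2 of 12 fits that left out 1 library, those without WT replicate 7 or without KO replicate 1 of E14.5, and in the other 10 the fold change kept between 0.25 and 0.29 while adjusted p reached 0.117. The call also ended with Y-linked expression as a covariate (0.29, adjusted p = 0.0562), and the sexes were unevenly spread at E13.5, where the summed level of 4 Y-linked genes, from low to high, was 0.0790, 189.8 and 202.7 CPM in KO hearts, against 0.0324, 0.146 and 193.2 CPM in WT hearts.

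*Lyl1* (chr8:84701457-84704715, plus strand), the *Tal1* paralogue, had 14.6, 15.0 and 12.8 CPM in E14.5 KO hearts, against 9.08, 11.9 and 8.38 CPM in E14.5 WT hearts. Its E13.5 levels were 17.0, 17.2 and 19.8 CPM in KO hearts, against 14.0, 14.4 and 14.9 CPM in WT hearts. Every KO heart was above every WT heart of its stage, as was so for 1.75% of all tested genes. The averaged log2 fold change was 0.43 ± 0.09 (95% interval 0.24 to 0.61, adjusted p = 0.0270). At E14.5 it was 0.53 ± 0.12 (adjusted p = 0.110, but 0.0497 with litter as a block and 0.0402 without WT replicate 7) and at E13.5 0.32 ± 0.12 (adjusted p = 0.386). The averaged call held in 3 of 12 fits that left out 1 library, those without 1 of the E14.5 hearts WT replicate 7, KO replicate 4 and KO replicate 1, and the highest adjusted p was 0.0817. *Lyl1* shares 4 exon bases with *Nfix* on the other strand, and the sources used here do not say whether counting used strand.

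*Lmo2* (chr2:103957986-103981878, plus strand) had a fold change of the other sign. It had 16.3, 17.8 and 20.7 CPM in E14.5 KO hearts, against 20.6, 20.8 and 19.2 CPM in E14.5 WT hearts. Its E13.5 levels were 18.7, 16.1 and 17.7 CPM in KO hearts, against 20.3, 22.2 and 20.8 CPM in WT hearts. All E13.5 KO hearts were below all E13.5 WT hearts, and at E14.5 the groups overlapped through KO replicate 1, the KO heart of litter 3. The averaged log2 fold change was -0.21 ± 0.07 (95% interval -0.35 to -0.06) and did not pass (adjusted p = 0.150). Without E14.5 KO replicate 1 it was -0.26 and passed (adjusted p = 0.0456), and likewise without litter 3 (-0.27, adjusted p = 0.0497). *Lmo2* lies on the same chromosome as *Ino80*, 15.4 Mb away, and whether that position plays a part in its level was not tested.

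These partners were also set against each other within each heart. The ratio of *Lyl1* to *Lmo2* CPM was 0.891, 0.841 and 0.621 in E14.5 KO hearts, against 0.440, 0.571 and 0.436 in E14.5 WT hearts. At E13.5 it was 0.907, 1.07 and 1.11 in KO hearts, against 0.687, 0.650 and 0.715 in WT hearts. The KO range lay above the WT range at both stages. The ratio of *Tal1* to *Lmo2* was 0.897, 0.882 and 0.641 in E14.5 KO hearts, against 0.575, 0.648 and 0.566 in E14.5 WT hearts. At E13.5 it was 1.09, 1.26 and 1.19 in KO hearts, against 0.811, 0.753 and 0.802 in WT hearts. This ratio separated the genotypes at E13.5, and overlapped at E14.5 through KO replicate 1. The ratios restate the levels above and were not tested.

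*Gata2* (chr6:88193891-88207032, plus strand), the GATA factor of endothelium and early progenitors, had 11.6, 13.6 and 13.54 CPM in E14.5 KO hearts, against 11.6, 12.8 and 10.8 CPM in E14.5 WT hearts. In E13.5 KO hearts it had 15.5, 14.4 and 15.6 CPM, against 13.2, 15.1 and 13.54 CPM in E13.5 WT hearts. The groups overlapped at both stages. The averaged log2 fold change of 0.13 ± 0.07 (95% interval -0.02 to 0.27) did not pass (adjusted p = 0.399).

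**Figure D1:**
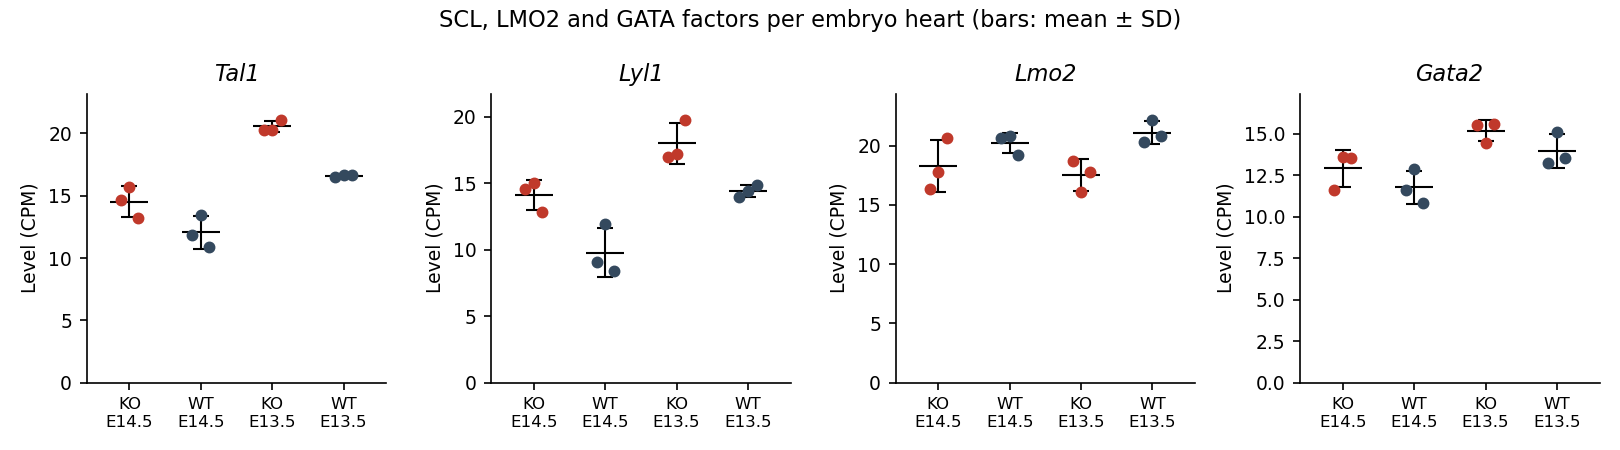
Levels in CPM (vertical axis) of *Tal1*, *Lyl1*, *Lmo2* and *Gata2* in each heart, grouped by genotype and stage (horizontal axis); points are embryos, bars the mean and SD of 3. *Lyl1* in the KO hearts lies above the WT hearts at both stages, and *Lmo2* in the E13.5 KO hearts (16.1 to 18.7 CPM) lies below the E13.5 WT hearts (20.3 to 22.2 CPM).

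Of the ETS factors none passed in KO hearts against WT hearts, and *Elk3* at E14.5 showed the widest gap. *Elk3* (chr10:93247414-93311135, minus strand) had 101.7, 108.8 and 106.0 CPM in E14.5 KO hearts, against 88.0, 92.7 and 74.7 CPM in E14.5 WT hearts. E13.5 hearts had 91.5, 95.7 and 100.1 CPM in KO, against 95.6, 97.5 and 92.8 CPM in WT. The E14.5 KO hearts were all above the E14.5 WT hearts, and the E13.5 groups overlapped. The log2 fold change was 0.31 ± 0.07 at E14.5 (95% interval 0.15 to 0.47, adjusted p = 0.135, and 0.0175 by DESeq2) and 0.01 ± 0.07 at E13.5 (adjusted p = 0.988). The difference between the stages, 0.30 ± 0.10, did not pass either (adjusted p = 0.997, unadjusted p = 0.0124). *Elk3* shares 316 exon bases with *Cdk17* on the other strand, whose own E14.5 log2 fold change was 0.08 ± 0.07 (adjusted p = 0.819).

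*Ets1* (chr9:32636221-32757820, plus strand) had 121.9, 117.2 and 139.7 CPM in E14.5 KO hearts, against 127.3, 130.3 and 120.2 CPM in E14.5 WT hearts. Its E13.5 levels were 110.4, 114.1 and 105.7 CPM in KO hearts, against 144.0, 129.2 and 114.9 CPM in WT hearts. The E13.5 KO hearts were all below the E13.5 WT hearts, by a narrow margin, and the E14.5 groups overlapped. The log2 fold change was 0.00 ± 0.09 at E14.5 (adjusted p = 0.997) and -0.23 ± 0.09 at E13.5 (95% interval -0.42 to -0.05, adjusted p = 0.381). *Fli1* lies next to *Ets1* on chromosome 9 (chr9:32422204-32542861, minus strand). It had 42.0, 37.5 and 40.9 CPM in E14.5 KO hearts, against 35.8, 35.7 and 41.1 CPM in E14.5 WT hearts. E13.5 hearts had 35.3, 30.0 and 31.0 CPM in KO, against 35.8, 35.3 and 31.2 CPM in WT. The genotypes overlapped at both stages, and the averaged log2 fold change was 0.00 ± 0.06 (95% interval -0.13 to 0.14, adjusted p = 0.984).

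*Erg* (chr16:95359169-95586593, minus strand), the ETS factor most restricted to endothelium, had 26.0, 26.3 and 31.4 CPM in E14.5 KO hearts, against 27.1, 27.3 and 23.9 CPM in E14.5 WT hearts. Its E13.5 levels were 24.4, 24.3 and 22.9 CPM in KO hearts, against 26.5, 26.9 and 24.4 CPM in WT hearts. The groups overlapped at E14.5, and at E13.5 they met at 24.4 CPM. The averaged log2 fold change was -0.01 ± 0.06 (95% interval -0.14 to 0.12, adjusted p = 0.957).

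The blood factors were scarce. *Runx1* (chr16:92601466-92826149, minus strand) had 0.793, 1.61 and 1.21 CPM in E14.5 KO hearts, against 1.37, 1.12 and 0.942 CPM in E14.5 WT hearts. In E13.5 KO hearts it had 0.778, 0.750 and 1.08 CPM, against 1.39, 1.04 and 1.03 CPM in E13.5 WT hearts. The ranges overlapped at both stages, and the averaged log2 fold change of -0.16 ± 0.21 had a 95% interval from -0.60 to 0.29 (adjusted p = 0.765). *Gfi1b* (chr2:28609450-28621982, minus strand) had raw counts of 3, 3 and 2 in E14.5 KO hearts, against 0, 2 and 2 in E14.5 WT hearts. In E13.5 KO hearts it had 23, 9 and 26 counts, against 18, 6 and 5 in E13.5 WT hearts. Scaled for depth these were 0.232, 0.178 and 0.143 CPM in E13.5 KO hearts, against 0.0972, 0.0676 and 0.0801 CPM in E13.5 WT hearts, so that the E13.5 KO hearts were all higher. At E14.5 every library was at or under 3 counts, and the WT replicate with 0 counts allows a level of up to 0.0641 CPM. Tested without the filter, the E13.5 log2 fold change was 1.13 ± 0.63 (adjusted p = 0.724).

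**Figure D2:**
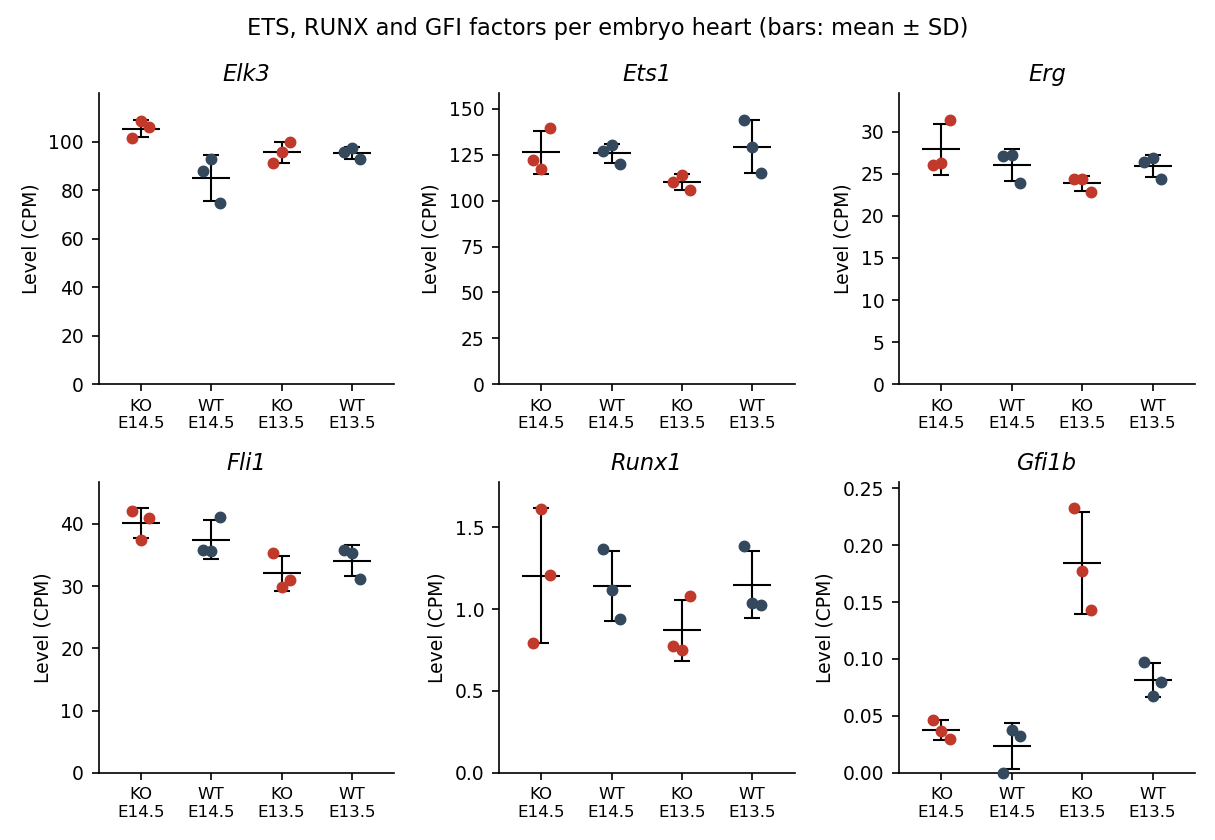
Levels in CPM (vertical axis) of the ETS factors *Elk3*, *Ets1*, *Erg* and *Fli1* and of *Runx1* and *Gfi1b* in each heart, by genotype and stage (horizontal axis); points are embryos, bars the mean and SD of 3. *Elk3* in the E14.5 KO hearts (101.7 to 108.8 CPM) lies above the E14.5 WT hearts (74.7 to 92.7 CPM), and *Gfi1b* is near 0 at E14.5.

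Counted together, 2 of 9 tested factors rose and 0 fell in KO hearts averaged over both stages, where 1.42% of all tested genes passed, 0.831% as higher and 0.585% as lower. The factors were chosen with the rises of *Tal1* and *Lyl1* known, so this count is not a test of the factors as a group. The median log2 fold change of the 9 was 0.00, as was that of all genes. At E14.5 alone 0 of 9 passed by edgeR (0.222% of all genes did), with 3 at an unadjusted p under 0.05 (9.59% of all genes) and 2, *Lyl1* and *Elk3*, by DESeq2 (1.68% of all genes). At E13.5 alone 0 of 9 passed by edgeR (0.106% of all genes did), with 4 at an unadjusted p under 0.05 (10.3% of all genes) and 0 by DESeq2 (1.5% of all genes). At E14.5, *Lyl1* and *Elk3* had KO hearts all above WT hearts and no tested factor had them all below, where 12.7% of all genes separated, 6.81% with KO above and 5.87% with KO below. At E13.5, *Tal1* and *Lyl1* had KO hearts all above WT hearts, and *Lmo2* and *Ets1* all below, where 19.6% of all genes separated, 8.44% with KO above and 11.2% with KO below. The KO effect was higher at E14.5 than at E13.5 for 8 of the 9 factors, the exception being *Tal1*, with a median difference of 0.21 on the log2 scale against -0.01 over all genes. Other lists had the same sign, with 12 of 12 pan-endothelial markers outside the 10 genes above 0 (median 0.27), 24 of 25 endothelial targets of ETS or SCL factors (0.27) and 17 of 18 macrophage and leukocyte genes (1.27), while 0 of 8 cardiomyocyte genes were (-0.12). The 12 markers and the 25 targets share genes, among them *Cdh5*, *Kdr*, *Tie1* and *Pecam1*, so their counts are not independent of each other. The part of these cell types in the shift of the factors was not tested. None of the differences of the 9 factors passed by edgeR, with 1 of 9, *Elk3*, at an unadjusted p under 0.05 and 0 by DESeq2. Of all genes, 0 passed this comparison by edgeR (0.0%, with 746 genes or 3.61% at an unadjusted p under 0.05 and 2 genes or 0.00967% by DESeq2).

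**Figure D3:**
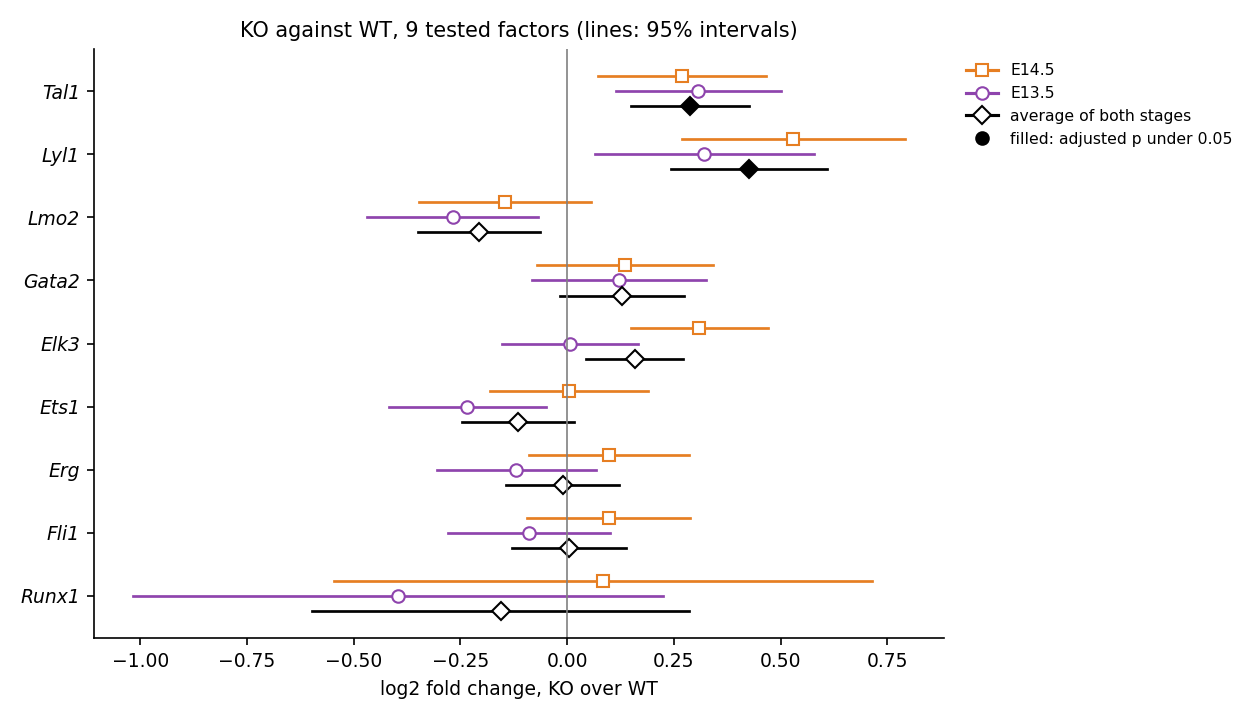
Log2 fold changes of KO over WT (horizontal axis) of the 9 tested factors (vertical axis) at E14.5, at E13.5 and averaged over both; lines are 95% intervals and filled symbols passed at an adjusted p under 0.05. The averages of *Tal1* (0.29) and *Lyl1* (0.43) are the filled symbols, and *Lmo2* (-0.21) lies on the other side of 0.

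Between the stages *Tal1* fell in both genotypes and *Lyl1* in WT hearts, and no factor rose past the threshold. *Tal1* fell by 0.50 ± 0.09 on the log2 scale in KO hearts at E14.5 against E13.5 (adjusted p = 0.0171) and by 0.46 ± 0.09 in WT hearts (adjusted p = 0.0243). *Lyl1* fell by 0.56 ± 0.12 in WT hearts (adjusted p = 0.0314), and had -0.35 ± 0.12 in KO hearts (adjusted p = 0.119). *Gata2* had -0.23 ± 0.10 in KO hearts and -0.25 ± 0.10 in WT hearts, and passed in neither (adjusted p = 0.183 in KO and 0.149 in WT hearts). All 3 had every E14.5 heart below every E13.5 heart in both genotypes, as was so for 6.22% of all genes. *Lmo2* did not share this, with 0.06 ± 0.09 in KO hearts (adjusted p = 0.776) and -0.06 ± 0.09 in WT hearts (adjusted p = 0.732). *Gfi1b*, left out by the filter and at or under 3 counts in every E14.5 library, also had every E14.5 heart below every E13.5 heart in both genotypes. Tested by edgeR without the filter, it had -2.245 ± 0.71 in KO hearts (adjusted p = 0.111) and -1.72 ± 0.82 in WT hearts (adjusted p = 0.314).

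The 4 ETS factors had every E14.5 KO heart above every E13.5 KO heart, where 24.9% of all genes separated, 12.1% with E14.5 above and 12.8% with E14.5 below. Their log2 fold changes in KO hearts were 0.32 ± 0.09 for *Fli1* (adjusted p = 0.0592, and 0.0134 by DESeq2), 0.23 ± 0.09 for *Erg* (adjusted p = 0.160), 0.20 ± 0.09 for *Ets1* (adjusted p = 0.210) and 0.14 ± 0.07 for *Elk3* (adjusted p = 0.318). In WT hearts the same factors had 0.14, 0.01, -0.04 and -0.16, and *Elk3* had every E14.5 WT heart below every E13.5 WT heart, where 29.5% of all genes separated, 14.0% with E14.5 above and 15.5% with E14.5 below. In all, 1 of 9 factors passed in KO hearts (3.74% of all genes, 1.63% as lower) and 2 of 9 in WT hearts (4.04%, 1.96% as lower), all of them lower at E14.5. The stage call of *Tal1* held in 8 of 12 fits without 1 library in KO hearts and in 8 of 12 in WT hearts, and that of *Lyl1* in 7 of 12. The calls in WT hearts ended without litter 3, with adjusted p = 0.0673 for *Tal1* and 0.101 for *Lyl1*, and that of *Lyl1* also with litter as a block (0.0535), with only the libraries compared (0.0563) and without both KO hearts lowest in macrophage genes (0.0501). In KO hearts the call of *Tal1* ended without any of the E13.5 KO replicates 3, 5 and 7 or without E14.5 KO replicate 1.

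**Figure D4:**
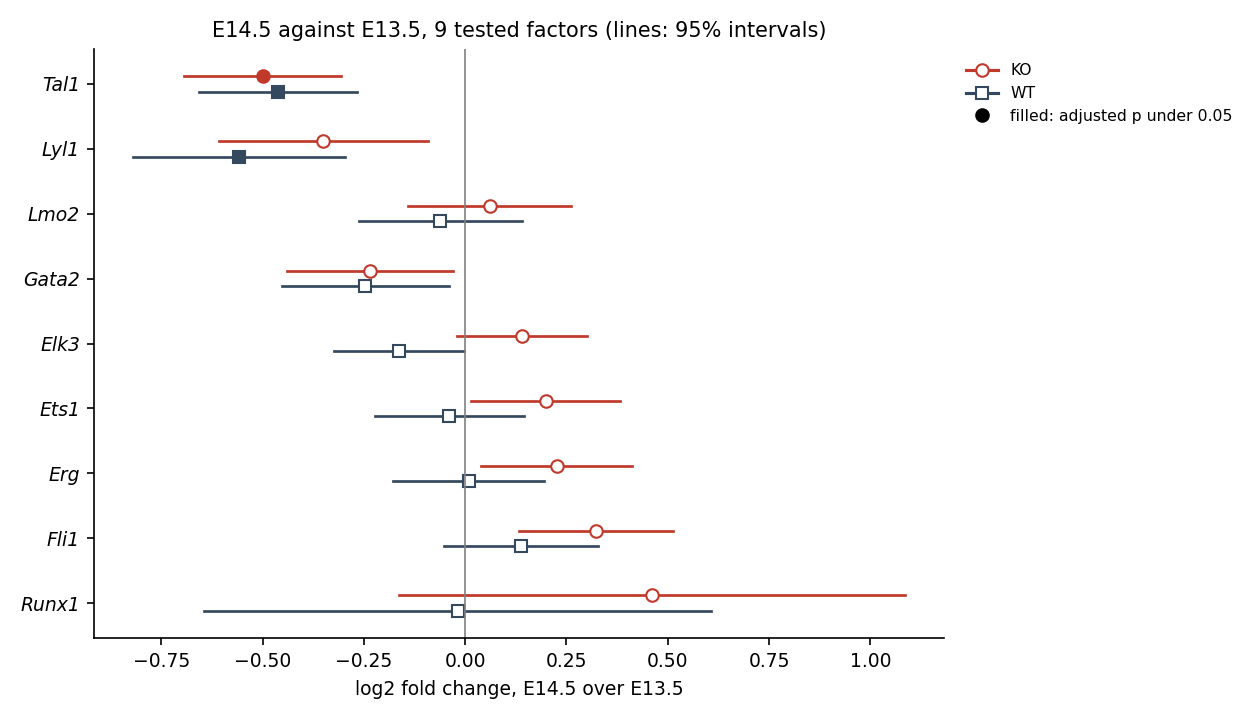
Log2 fold changes of E14.5 over E13.5 (horizontal axis) of the 9 tested factors (vertical axis) in KO and in WT hearts; lines are 95% intervals and filled symbols passed at an adjusted p under 0.05. *Tal1* lies below 0 in both genotypes (-0.50 in KO and -0.46 in WT hearts), while the ETS factors in KO hearts lie above 0.

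By edgeR, averaged over the stages, 0 of 19 tested partners of the SCL complex and 2 of 15 other ETS factors passed between KO and WT. These lists were not tested against each other. Of 19 tested partners and cofactors of the SCL complex, among them *Ldb1*, the E-proteins *Tcf3*, *Tcf4* and *Tcf12*, *Gata1*, *Cbfa2t3* and the HLH inhibitors *Id1* and *Id3*, 0 passed by edgeR averaged over the stages, with 2 at an unadjusted p under 0.05 (14.7% of all genes) and 1, *Id1*, by DESeq2 (4.48% of all genes). Their median log2 fold change was 0.02, against 0.00 over all genes. Of 15 other ETS factors, 2 rose and 0 fell by edgeR, where 0.831% of all genes rose. DESeq2 called 3, adding *Etv4* (4.48% of all genes), and 3 had an unadjusted p under 0.05 (14.7% of all genes). *Etv5*, a PEA3-class factor downstream of FGF signalling, averaged 30.2 ± 3.90 CPM in E14.5 KO hearts and 21.0 ± 2.51 CPM in E14.5 WT hearts, and 33.4 ± 2.13 CPM in E13.5 KO hearts and 25.4 ± 2.86 CPM in E13.5 WT hearts (SD, n = 3 each). Its averaged log2 fold change was 0.46 ± 0.08 (adjusted p = 0.0153), and the call ended in 1 of 12 fits that left out 1 library, that without E13.5 WT replicate 4 (adjusted p = 0.0507). *Ets2*, an ETS activator downstream of MAP kinases, rose by 0.19 ± 0.04 (adjusted p = 0.0270), a call that held in 3 of 12 such fits.

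Of 25 endothelial genes known as targets of ETS or SCL factors, 2 rose and 2 fell in KO hearts averaged over the stages, with a median log2 fold change of 0.10. *Eng*, a TGF-beta co-receptor whose enhancers bind TAL1 and ETS factors in mouse cells, rose by 0.30 ± 0.06 (adjusted p = 0.0193) and *Ramp2*, a partner of the adrenomedullin receptor, by 0.33 ± 0.06 (adjusted p = 0.0232). *Pecam1*, an adhesion molecule of endothelium and platelets, fell by 0.47 ± 0.05 (adjusted p = 0.000785), and *Cldn5*, a tight junction protein, fell by 0.85 ± 0.12 (adjusted p = 0.00602). The falls of *Pecam1* and *Cldn5* held in 12 of 12 fits without 1 library, and the rises of *Eng* and *Ramp2* in 9 and 7 of 12. By edgeR 4 of 25 thus passed, on both sides of 0, where 1.42% of all genes did. This list too was chosen with earlier results of these data known, so its count is not a test of the list. DESeq2 called 8 of 25 (4.48% of all genes), adding *Emcn*, *Flt4*, *Icam2* and *Vwf*, and 12 of 25 had an unadjusted p under 0.05 (14.7% of all genes). Between stages 8 of the 25 rose and 0 fell in KO hearts at E14.5, where 2.11% of all genes rose, and 11 of 25 passed by DESeq2 (8.81% of all genes). Among the 8 were *Pecam1* (0.41, adjusted p = 0.0171), *Esam* (0.38, 0.0206), *Notch4* (0.50, 0.0326) and *Dll4* (0.48, 0.0373). These 4 calls held in 7 or 8 of 12 fits without 1 library, those of *Angpt2*, *Cldn5* and *Sox18* in 4 of 12 and that of *Icam2* in 2 of 12. In WT hearts 1 rose and 2 fell at E14.5, where 2.08% of all genes rose and 1.96% fell, namely *Cldn5* (0.68, adjusted p = 0.0469), *Tie1* (-0.38, 0.0345) and *Egfl7* (-0.29, 0.0490). These calls held in 3 of 12 such fits for *Cldn5*, 5 for *Tie1* and 2 for *Egfl7*.

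Because TAL1, LYL1, LMO2 and GATA2 also act in blood cells, markers of blood were measured in the same hearts. The summed level of 20 erythroid genes was 4982 to 42170 CPM in E14.5 KO hearts, against 11970 to 18650 CPM in E14.5 WT hearts, and 5847 to 9980 CPM in E13.5 KO hearts, against 7048 to 12160 CPM in E13.5 WT hearts. The erythroid ranges overlapped at both stages. Averaged over the stages, 0 of 20 passed by edgeR (1.42% of all genes), with 2 at an unadjusted p under 0.05 (14.7%) and 0 by DESeq2 (4.48%). The highest heart, E14.5 KO replicate 1 of litter 3, had the lowest *Tal1* and *Lyl1* of its group. The WT heart of litter 3, E14.5 WT replicate 7.2, likewise had the highest erythroid sum of its group (18650 CPM), with the lowest *Tal1* (10.9 CPM) and *Lyl1* (8.38 CPM). This was not so at E13.5. There KO replicate 7 had the highest erythroid sum of its group (9980 CPM), with the highest *Tal1* (21.1 CPM) and *Lyl1* (19.8 CPM). E13.5 WT replicate 2 had the highest sum of its group (12160 CPM), with the highest *Lyl1* (14.9 CPM) and 16.7 CPM of *Tal1*. Macrophage and leukocyte genes summed to 51.3 to 181.8 CPM in E14.5 KO hearts, against 138.6 to 149.0 CPM in E14.5 WT hearts, and to 47.8 to 109.9 CPM in E13.5 KO hearts, against 157.0 to 172.2 CPM in E13.5 WT hearts. The sum of these 18 genes was lower in all E13.5 KO hearts, the direction of *Lmo2* and opposite to that of *Tal1* and *Lyl1*. At E13.5 all 18 had a fold change below 0, with a median of -1.45 on the log2 scale. By edgeR 0 passed at E13.5 (0.106% of all genes), with 7 at an unadjusted p under 0.05 (10.3%) and 0 by DESeq2 (1.5%). Averaged over the stages, 0 of the 18 passed by edgeR (1.42% of all genes), with 3 at an unadjusted p under 0.05 (14.7%) and 0 by DESeq2 (4.48%).

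The sum of megakaryocyte and platelet genes was higher in all E14.5 KO hearts, the direction of *Lyl1*, and overlapped between the genotypes at E13.5. These genes summed to 35.6 to 39.0 CPM in E14.5 KO hearts, against 22.7 to 34.0 CPM in E14.5 WT hearts, and to 33.8 to 44.2 CPM in E13.5 KO hearts, against 29.6 to 38.1 CPM in E13.5 WT hearts. Of 11 tested, 1 rose and 0 fell averaged over the stages, where 0.831% of all genes rose and 0.585% fell. The riser was the integrin *Itgb3* (0.52 ± 0.08, adjusted p = 0.00536), while *Pf4*, the defining platelet chemokine, had 0.27 ± 0.18 (adjusted p = 0.514). At E14.5, 7 of the 11 had a fold change above 0, and 0 passed by edgeR (0.222% of all genes). *Itgb3*, 1 of the summed genes, averaged 16.0 CPM in E14.5 KO hearts, against 10.9 CPM in E14.5 WT hearts. Of 9 tested mast cell genes, 1 rose and 2 fell averaged over the stages (0.831% and 0.585% of all genes). *Kit*, a receptor also made by endothelium and progenitors, rose by 0.45 ± 0.08 (adjusted p = 0.0164). The mast cell proteases *Cpa3* and *Cma1* fell, by 2.65 ± 0.27 (adjusted p = 0.000519) and by 1.70 ± 0.36 (adjusted p = 0.0347), and the call of *Cma1* held in 4 of 12 fits without 1 library. *Tpsb2*, a mast cell tryptase, fell at E14.5 (adjusted p = 0.0265), with 0.0 to 0.0616 CPM in E14.5 KO hearts, against 1.047 to 1.36 CPM in E14.5 WT hearts. Of 10 blood stem and progenitor genes, a list that also holds *Kit*, 1 rose and 1 fell averaged over the stages (0.831% and 0.585% of all genes). *Hlf*, a transcription factor of blood stem cells, fell by 0.43 ± 0.09 (adjusted p = 0.0328), a call that held in 7 of 12 such fits. These 10 genes summed to 257.7 to 287.7 CPM in E14.5 KO hearts, against 250.9 to 276.3 CPM in E14.5 WT hearts, and to 225.6 to 227.5 CPM in E13.5 KO hearts, against 233.3 to 244.5 CPM in E13.5 WT hearts. Their sum was lower in all E13.5 KO hearts, opposite to *Tal1* and *Lyl1*, and 1 of the 10 genes had an E13.5 fold change above 0. *Cd34* made up a large part of this sum, with 103.5 CPM on average in E13.5 KO hearts, against 107.8 CPM in E13.5 WT hearts. Markers of endothelium outside the 10 genes summed to 1159 to 1283 CPM in E14.5 KO hearts, against 986.2 to 1184 CPM in E14.5 WT hearts. At E13.5 they summed to 1099 to 1128 CPM in KO hearts, against 1130 to 1209 CPM in WT hearts. This sum was slightly lower in E13.5 KO hearts, but the markers were split, with 5 of 12 above 0 at E13.5. *Pecam1* averaged 93.0 CPM in E13.5 KO hearts, against 143.1 CPM in E13.5 WT hearts, and *Cldn5* 9.34 against 17.0 CPM. *Plvap* went the other way, with 134.7 CPM in E13.5 KO hearts, against 109.7 CPM in E13.5 WT hearts. No listed marker was at 0 in all libraries, and the part of these cells in the levels of the factors was not tested. Without both KO hearts lowest in macrophage genes (replicate 5 of E13.5 with replicate 2 of E14.5), the averaged fold changes of *Tal1* (0.29) and *Lyl1* (0.43) were as large, but neither passed (adjusted p = 0.185 for *Tal1* and 0.122 for *Lyl1*).

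**Figure D5:**
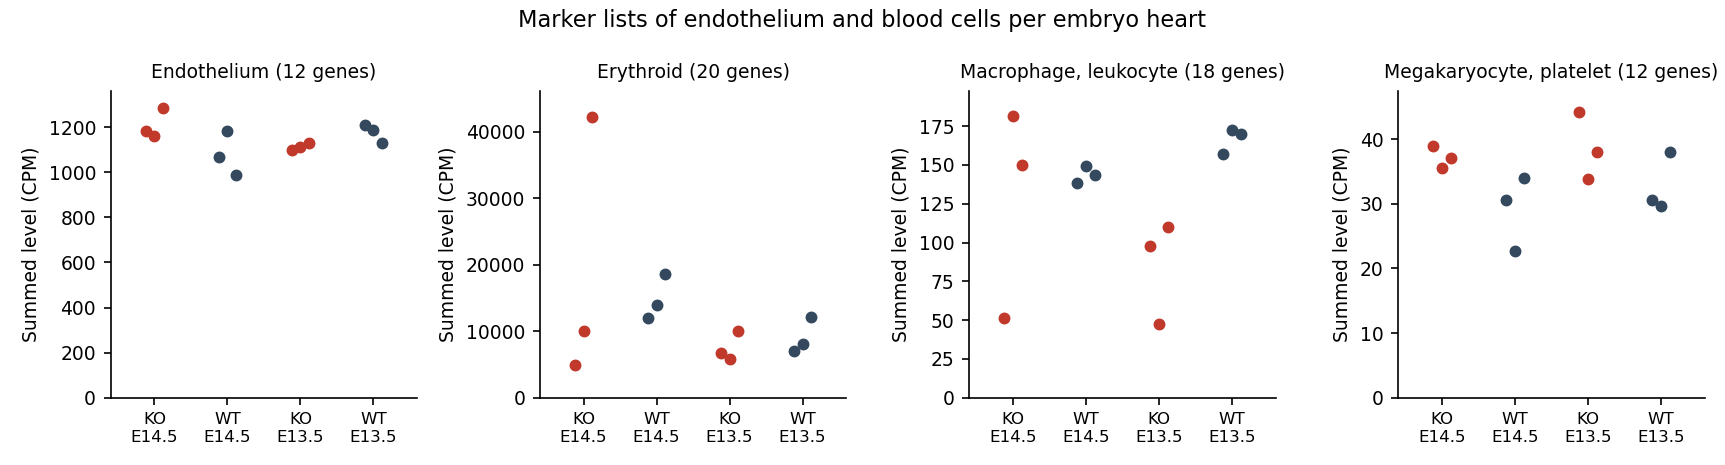
Summed levels in CPM (vertical axes, each from 0) of markers of endothelium, erythroid cells, macrophages and leukocytes, and megakaryocytes and platelets in each heart, by genotype and stage (horizontal axis); points are embryos. Macrophage and leukocyte genes are lower in the E13.5 KO hearts (47.8 to 109.9 CPM) than in the E13.5 WT hearts (157.0 to 172.2 CPM), and the erythroid sum is highest in 1 E14.5 KO heart (42170 CPM).

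The genes whose levels most resembled each factor over the 12 libraries were found among 11958 genes of at least 1 CPM, by the root mean square difference of log2 CPM after centring. *Erg* was closest to *Cdh5*, the endothelial cadherin, at 0.0488, where its median difference to all candidates was 0.185. *Tal1* was closest to *Rasd1* (0.102) and *Tgfb2* (0.106), against a median of 0.325, and *Lyl1* to *Gpr182* (0.105), an endothelial receptor, and *Ildr2* (0.120), against 0.374. *Lmo2* was closest to *Ntpcr* (0.0673) and *Gata2* to *Ccnj* (0.0678). *Fli1* was closest to *Ccser2* (0.0558), *Ets1* to *Rictor* (0.0497), *Elk3* to *Aplp2* (0.0681) and *Runx1* to *Slc40a1* (0.179), an iron exporter of macrophages. No factor had another of the 10 as a candidate, since these were left out.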

How the data were processed

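The authors deposited a table of raw counts per gene symbol (45664 rows), made with STAR 2.5.3a and featureCounts on GRCm38 per the submitters' processing notes, which do not give the counting strand. The 12 columns were matched to samples by the labels' descriptions, and the 66 pairs of libraries all differed beyond counting noise. Counts were tested with edgeR 4.0.16 (R 4.3.3, limma 3.58.1): genes low in counts were left out by filterByExpr (minimum count 10), TMM scaling was used, and 1 quasi-likelihood model with robust estimation and a mean per group was fitted over 12 libraries, with 8 residual degrees of freedom and a biological coefficient of variation of 17.1%. Tests were two-sided, with Benjamini-Hochberg adjustment over 20691 genes at 0.05. The p-values rest on the spread between the 3 hearts within each group, pooled over all 12 libraries and also drawing on other genes. A comparison of 2 groups thus also uses the spread within the other groups. Standard errors were computed from the fold change and the F statistic of each test. CPM per kb used the exon length of GENCODE M21, the source of gene coordinates. On simulated counts for KO averaged over the stages (20691 genes, 200 of them changed 2-fold), the test called all 200 and 15 unchanged genes (6.98% of its calls); changes as small as those of the factors were not simulated. The factors, gene lists and naming rule (all 10 factors, up to 4 called genes per list by p-value, the defining markers of each cell type and the most similar genes) were chosen with earlier results of these data known, the rises of Tal1 and Lyl1 included. Alternatives were DESeq2 1.42.0, RLE size factors, no filter, the compared libraries alone, litter as a replicate block, a Y-linked covariate and leaving out libraries; a fit without robust estimation was added after seeing the data.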

Additional observations from a re-analysis of the deposited data

How the results depend on the processing

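With litter as a replicate block, the paired fit, the E14.5 KO effect on Lyl1 passed (0.53, adjusted p = 0.0497) and its fall with stage in WT hearts did not (-0.48, adjusted p = 0.0535), and no other call on a factor changed. Replicate numbers pair no samples, and residuals of hearts of the same litter correlated at 0.00513 on average, against -0.00644 between litters. The call of Tal1 averaged over the stages ended with a Y-linked covariate (adjusted p = 0.0562). Of 1116 recomputed values for the factors, 1021 kept their direction and side of the threshold, 41 lost their call, 9 gained one and 45 changed sign, each of these from a value that had not passed. Most of the 1116 values belong to results that had not passed in the main fit. The calls themselves were less steady. Averaged over the stages, that of Tal1 was lost in 12 of 20 alternatives and that of Lyl1 in 10 of 20. The stage call of Tal1 was lost in 5 of 21 in KO hearts and in 5 of 21 in WT hearts, and that of Lyl1 in WT hearts in 9 of 21.

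Counts of called genes over the whole table also moved with the setting, and the cause was not tested. For KO averaged over the stages (293 genes) DESeq2 called 926, the fit without both KO hearts lowest in macrophage genes called 72, and fits without 1 library called 125 to 484. For KO at E14.5 (46) the counts were 348 by DESeq2, 77 without a filter, 2 with only the libraries compared, 92 with the replicate block, 7 without both these KO hearts, 8 without E14.5 WT replicate 7.2 and 13 to 107 without another library. For KO at E13.5 (22) they were 310 by DESeq2, 40 without a filter, 96 with only the libraries compared, 60 with the replicate block, 9 with the Y-linked covariate, 74 without litter 3 and 2 to 69 without 1 library. The difference between the KO effects gave 0 genes by edgeR and 2 by DESeq2. For stage in KO hearts (774) they were 1822 by DESeq2, 289 with only the libraries compared, 332 with the replicate block, 427 with the Y-linked covariate, 148 without both KO hearts, 1095 without E14.5 WT replicate 7.2 and 66 to 910 without another library. For stage in WT hearts (836) they were 2140 by DESeq2, 299 with the replicate block, 93 without litter 3, 524 without both KO hearts, 19 without E14.5 WT replicate 7.2 and 8 to 1069 without another library.

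Log2 fold changes of the factors that changed sign are given here. Without litter 3 the KO effect at E14.5 was -0.054 for Erg, -0.107 for Ets1 and -0.041 for Runx1, the difference of the KO effects was -0.016 for Lmo2 and -0.083 for Gata2, and stage gave -0.045 for Lmo2 in KO hearts and 0.101 for Runx1 in WT hearts. Averaged over the stages, Erg had 0.0098 with the Y-linked covariate and 0.0044 without both KO hearts, and Ets1 at E14.5 had -0.00092 with that covariate. Stage in WT hearts gave -0.0048 without a filter and -0.0053 with the replicate block for Erg, and 0.038 with the replicate block for Runx1. Without E14.5 WT replicate 7.2 the KO effect at E14.5 was -0.029 for Ets1 and -0.040 for Runx1, the difference of the KO effects was -0.044 for Gata2, and stage gave 0.105 for Runx1 in WT hearts. Without another single library, the averaged KO effect ran from -0.057 to 0.014 for Erg and from -0.034 to 0.026 for Fli1. The KO effect at E13.5 ran from -0.029 to 0.032 for Elk3, and that at E14.5 from -0.075 to 0.054 for Ets1 and from -0.188 to 0.310 for Runx1. The difference of the KO effects ran from -0.039 to 0.083 for Gata2 and from -0.096 to 0.050 for Tal1. Stage ran from -0.038 to 0.135 for Lmo2 in KO hearts, and in WT hearts from -0.040 to 0.028 for Erg, from -0.126 to 0.043 for Ets1 and from -0.165 to 0.143 for Runx1. Depth limits Gfi1b, and Runx1 in part.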

Other observations

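Within hearts, paralogues and family members also shifted against each other. The ratio of Lyl1 to Tal1 CPM was 0.994, 0.953 and 0.969 in E14.5 KO hearts, against 0.766, 0.881 and 0.771 in E14.5 WT hearts, and the groups did not overlap. At E13.5 it was 0.836, 0.849 and 0.936 in KO hearts, against 0.847, 0.863 and 0.892 in WT hearts, with overlap. The ratio of the ETS repressor Elk3 to the ETS activator Ets1 was 0.834, 0.928 and 0.759 in E14.5 KO hearts, against 0.692, 0.712 and 0.622 in E14.5 WT hearts. At E13.5 it was 0.829, 0.838 and 0.947 in KO hearts, against 0.664, 0.755 and 0.808 in WT hearts. The KO range of this ratio lay above the WT range at both stages. These ratios were chosen after seeing the values, and were not tested.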
